A study of Mus with 2 samples.

Results

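Monocytes with transcripts of Apoc2, Ear2 or Treml4 were picked out of mouse bone marrow by a rule written for nonclassical patrolling monocytes, and 650 of 18089 barcodes met it. The rule asked for at least 1 UMI of Csf1r, the receptor for macrophage colony-stimulating factor, and at least 2 UMIs in all of Ear2, Apoc2 and Treml4. It also asked for no Mki67, Top2a or Cd79a, fewer than 3 UMIs of the C1q genes, and under 1% of UMIs from the granule genes Elane, Mpo, Prtn3 and Ctsg. These cells are called the selected cells here. The data went against the label for most of them: 476 of 650 (73.2%) lay in classical monocyte-like clusters and 85 (13.1%) in a nonclassical monocyte-like cluster, when cells were clustered without the genes of the rule.

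The study profiled hindlimb bone marrow of mice labelled ground and of mice labelled running by droplet single-cell RNA sequencing with a 3′ kit, in which a unique molecular identifier (UMI) lets copies of one transcript be counted once. There was 1 library per group. The labels give no strain, sex, age, running protocol or number of mice per library. The selected cells numbered 367 in ground, with 3473034 UMIs, and 283 in running, with 2223667 UMIs. Because each group is a single library, no difference between ground and running has a replicate check, no test was made, and every 95% interval below covers counting error only.

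Classical monocytes leave the marrow through the chemokine receptor CCR2, carry Ly6C at high levels and enter inflamed tissue. Some of them convert into nonclassical monocytes, which lose Ly6C and CCR2, depend on the nuclear receptor NR4A1, and crawl along the inner wall of small blood vessels with the help of CX3CR1 and the integrin LFA-1. Nonclassical monocytes are known for the Fc receptor FcγRIV (Fcgr4), the surface sialoglycoprotein CD43 (Spn) and scavenging at the endothelium.

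Of the 3 genes in the sum, Apoc2, an apolipoprotein that activates lipoprotein lipase, chose most of the selected cells. Apoc2 was detected in 597 of 650 (91.8%), Ear2, an eosinophil-associated ribonuclease, in 278 (42.8%), and Treml4, a receptor of the TREM family, in 133 (20.5%). In 323 cells (49.7%) the sum came from Apoc2 alone, and 67 (10.3%) held all 3 transcripts. The level of Apoc2 was 402 CPM (UMIs of the gene per unit of all UMIs in the set of cells, on the usual CPM scale) in ground and 420.5 in running, that of Ear2 was 117 and 141, and that of Treml4 was 39.2 and 39.1. These levels are a description, because the rule used them. Ear2 belongs to a family of near-identical genes, so its count may be split among copies.

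At the threshold, the 174 cells with a sum of exactly 2 and the 352 cells with a sum of 1 that met every other condition can be set side by side. The level of Ly6c2, which encodes Ly6C, was 1366 CPM in ground and 2535 in running at a sum of 2, and 1410.4 and 2403 CPM at a sum of 1. The level of Ace, the angiotensin-converting enzyme and a nonclassical marker, was 19.2 and 36.6 CPM just inside and 9.03 and 17.7 CPM just outside. Classical-like clusters held 76.7% and 69.3% of the cells with a sum of 2, and 47.5% and 49.5% of those with a sum of 1. Cells with over 5% of UMIs from the neutrophil genes S100a8 and S100a9 made up 15.1% in ground and 27.3% in running at a sum of 2, and 44.3% and 40.7% at a sum of 1.

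The markers given with the label that the rule did not use were Cx3cr1, Nr4a1 and Fcgr4. Non-cycling cells with Ccr2 and Csf1r but no UMI of the 3 genes, and none of Siglech or Cd209a, served for comparison (102 in ground and 181 in running). The level of Cx3cr1 was 287 CPM in ground and 308 in running in the selected cells, against 206 and 217 in the comparison cells. For Nr4a1 the levels were 156 and 247 CPM against 87.6 and 134. For Fcgr4 they were 84.4 and 81.8 CPM against 26.0 and 24.8. All 3 genes were higher in the selected cells in both libraries, and Fcgr4 by the most, with log2 ratios of 1.70 (95% interval 1.07 to 2.39) in ground and 1.72 (1.20 to 2.28) in running. Of the Fcgr4 UMIs, 148 of 293 in ground and 117 of 182 in running lay in the nonclassical-like cluster. In selected cells of classical-like clusters Fcgr4 was at 39.9 and 27.1 CPM, Cx3cr1 at 259 and 266, and Nr4a1 at 124 and 201.

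Genes that nonclassical monocytes lose were abundant in the selected cells. Ly6c2 stood at 1436 CPM in ground and 2363 in running, against 1709.8 and 3084 in the comparison cells. The level of Ccr2 was 1785 and 1736 CPM, and that of F13a1, the A subunit of coagulation factor XIII, was 1124 and 1118 CPM. A Ly6c2 UMI was found in 87.5% of selected cells in ground and 89.4% in running, at median depths of 9426 and 7830 UMIs. In B cells, which served as a background for free RNA, the share was 21.3% and 26.2% at median depths of 3286 and 3596 UMIs. The highest B cell held 64 Ly6c2 UMIs in ground and 376 in running, so these shares need not come from free RNA alone. With every cell thinned to 2000 UMIs, the shares were 72.6% and 82.3% in selected cells, leaving out 6 and 1 shallower cells, and 13.2% and 14.7% in B cells, leaving out 82 and 48.

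**Figure D1:**
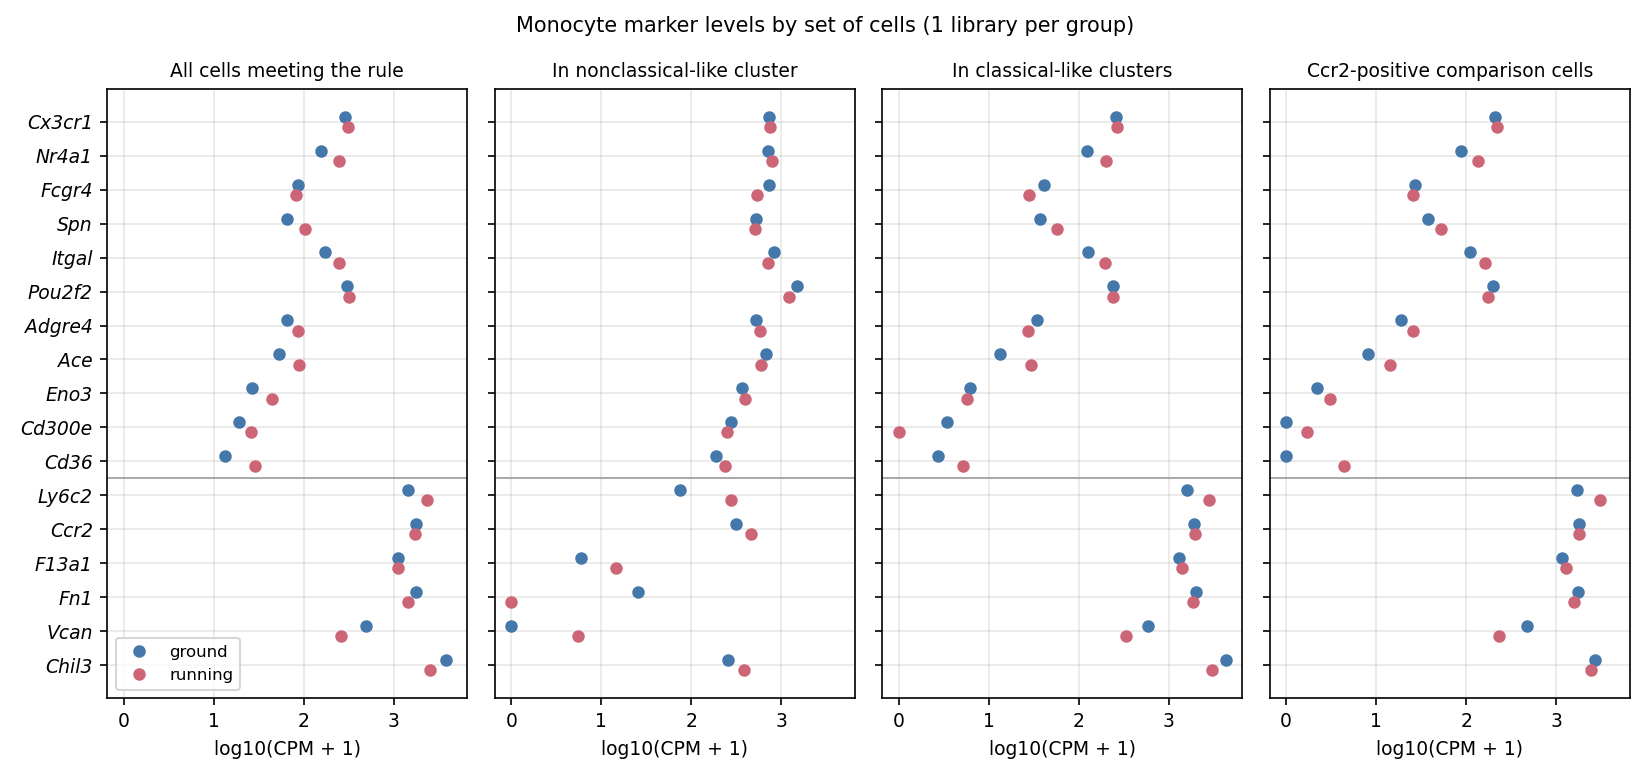
Levels of monocyte markers as log10(CPM + 1) in 4 sets of cells, with 1 point per library. Genes above the grey line mark nonclassical monocytes and genes below it classical monocytes; selected cells in the nonclassical-like cluster have Ly6c2 at 74.4 CPM in ground and 273 in running, against 1436 and 2363 CPM in all selected cells and 1709.8 and 3084 in the comparison cells.

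The clusters split the selected cells into groups with different marker levels. In ground, 282 of 367 (76.8%) lay in classical-like clusters and 41 (11.2%) in the nonclassical-like cluster. In running, the numbers were 194 of 283 (68.6%) and 44 (15.5%). Neutrophil-like clusters held another 42 and conventional dendritic cell-like clusters 41. The nonclassical-like cluster had 120 cells in all and was led by Ace, Adgre4, Eno3, Cd300e, Apoc2, Ear2, Nr4a1, Hspa1b, Hspa1a and Cx3cr1, the stress genes Hspa1a and Hspa1b among them. Of its 35 cells outside the rule, 17 held a UMI of Mki67 or Top2a and 10 fell short of the sum, and a cell could miss several conditions.

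Ly6c2 UMIs were few in cells of the nonclassical-like cluster. The number of Ly6c2 UMIs per cell had a median of 0 in both libraries there, with 27 of 41 cells (65.9%) in ground and 23 of 44 (52.3%) in running at 0. The highest cell held 2 UMIs in ground and 14 in running. After thinning, 12.5% and 31.8% of these cells held a Ly6c2 UMI, against 13.2% and 14.7% of B cells, whose shares need not come from free RNA alone. Selected cells in classical-like clusters had a median of 14 Ly6c2 UMIs in ground and 23 in running, with 7 of 282 and 1 of 194 at 0. Median depth differed too, at 4319 and 4281 UMIs in the nonclassical-like cluster and 9981 and 8469.5 in the classical-like clusters.

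Summed over the 14 nonclassical monocyte markers that the rule did not use, the level was 9611 CPM in ground and 8599 in running in the nonclassical-like cluster, and 1650.4 and 1758 CPM in the classical-like clusters. In the comparison cells it was 1222 and 1365 CPM. The 12 classical markers summed to 1329 and 1878 CPM in the nonclassical-like cluster, where Vcan was at 0 in ground and Fn1 and Cd14 were at 0 in running. They summed to 13716 and 13160 CPM in the classical-like clusters. Of the 14 nonclassical markers, Itgax and Cd300e were at 0 in selected cells of classical-like clusters in running.

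Nonclassical genes were highest in the selected cells with the most Ear2 and Treml4. Selected cells with no Ear2 or Treml4 UMI (177 in ground, 146 in running) had Ace at 4.62 and 10.99 CPM, and those with 3 or more (67 and 55) had it at 252 and 306 CPM. The level of Fcgr4 was 32.9 and 24.5 CPM in the former and 281 and 279 in the latter. Of the cells with 3 or more, 32 in ground and 30 in running lay in the nonclassical-like cluster, against 0 and 1 of those with none.

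Classical genes were lowest at 3 or more Ear2 and Treml4 UMIs, without vanishing. F13a1 went from 1215 CPM in ground and 1333 in running at no Ear2 or Treml4 UMI to 577 and 481 CPM at 3 or more. In ground there was no stepwise fall, with F13a1 at 1254 and 1232 CPM at 1 and 2 UMIs. In running it was at 1197 and 936 CPM at these steps. The level of Ly6c2 in ground was 1442, 1554 and 1687 CPM at 0, 1 and 2 UMIs. At 3 or more Ly6c2 was still at 1078 CPM in ground and 1279 in running. Only Ear2 and Treml4 were used to form these steps, but both belong to the rule, so the steps are a description.

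**Figure D2:**
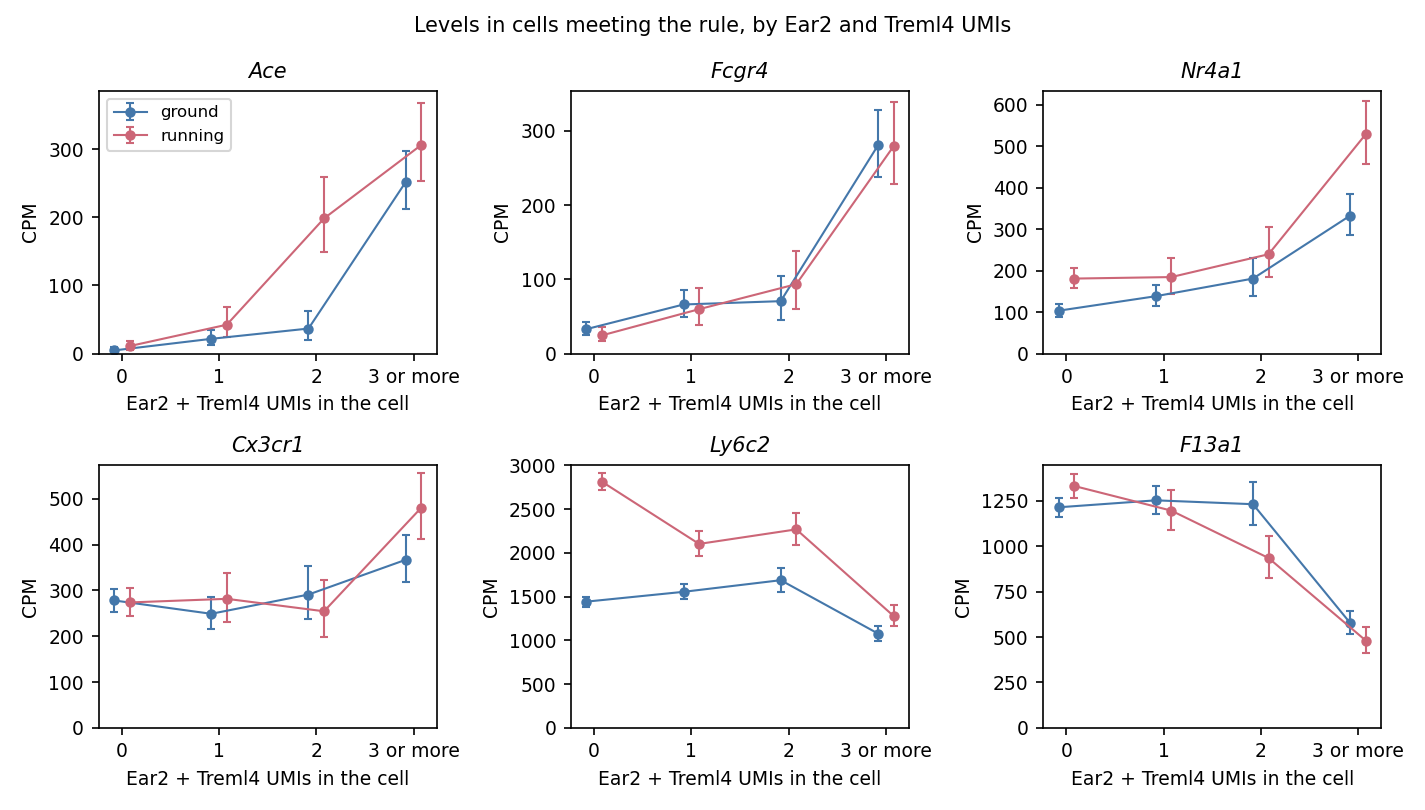
Levels (CPM, linear axis from 0) of 6 genes in selected cells grouped by the number of Ear2 and Treml4 UMIs in the cell, per library, with exact 95% Poisson intervals that cover counting error only. Ace reaches 252 CPM in ground and 306 in running at 3 or more UMIs, while F13a1 is lowest there at 577 and 481 CPM.

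Set against the comparison cells as a whole, the selected cells differed in few genes outside the rule. Of 6448 genes with at least 50 UMIs over both sets in each library, 17 (0.264%) had a ratio of at least 2 in both libraries and 4 (0.062%) a ratio of at most 0.5 in both. The 17 include Apoc2, Ear2 and Treml4, whose excess over the comparison cells was fixed by how the 2 sets were defined. Eno3, the muscle-type enolase, stood at 25.9 CPM in ground and 43.6 in running against 1.18 and 2.07, from 1 and 3 UMIs, with log2 ratios of 4.45 (1.94 to 9.77) and 4.40 (2.81 to 6.70). Ace had log2 ratios of 2.86 (1.71 to 4.32) and 2.76 (2.08 to 3.52). Cd300e, an activating receptor of monocytes, had no UMI in ground comparison cells and 1 in running, so its log2 ratio was at least 2.35 in ground (against a floor of 3 UMIs) and 5.16 (2.63 to 10.49) in running.

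Other genes higher in both libraries included S1pr5, a receptor that guides cells out of the marrow along sphingosine-1-phosphate (2.21 and 3.11), Adgre4, an adhesion receptor (1.85 and 1.78), and Hes1, a transcriptional repressor induced by Notch (1.501 and 1.92). Hfe, a regulator of iron uptake, had log2 ratios of 1.19 and 1.67, and Thbs1, thrombospondin-1, of 1.05 and 1.44. The UMIs of Cd300e lay mostly in the nonclassical-like cluster, with 56 of 63 in ground and 55 of 55 in running. Those of Thbs1 lay elsewhere, with 1 of 281 and 2 of 200 in that cluster.

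Lower in the selected cells than in the comparison cells were Stmn1, a microtubule regulator of dividing cells (log2 ratios of -1.43 and -1.47), and the antiviral gene Rsad2 (-1.50 and -1.16). The MHC class II genes were lower too. H2-Aa stood at 165 CPM in ground and 381 in running, against 506 and 578 in the comparison cells, with log2 ratios of -1.61 and -0.60. All 7 class II genes counted were lower in both libraries, with a median of -1.04 in ground and -0.54 in running, where all 6448 genes had medians of 0.02 and -0.02 and 1794 of them were lower in both. Dendritic cell-like clusters held 16 of 102 comparison cells in ground and 35 of 181 in running, and 21 of 367 and 20 of 283 selected cells. Their part in the class II difference was not tested.

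Within the selected cells, the nonclassical-like cluster differed from the classical-like clusters in many genes. Of 4741 genes with at least 50 UMIs over both groups of clusters in each library, 221 (4.66%) had a ratio of at least 2 in both libraries and 264 (5.57%) of at most 0.5. Over all 4741 genes, 1707 were higher and 1717 lower in both libraries. Clustering used these genes, so the values describe the split and do not test it. The classical-like clusters held most UMIs (2909563 in ground and 1699837 in running, against 201641 and 219904), so a gene high only in the nonclassical-like cluster could miss the minimum, and list counts below cover only genes that met it. Fcgr4 stood at 734 CPM in ground and 532 in running against 39.9 and 27.1 in the classical-like clusters. Nr4a1, which nonclassical monocytes need, was at 714 and 791 CPM against 124 and 201. Spn was at 531 and 514 CPM, with log2 ratios of 3.88 (3.48 to 4.28) and 3.19 (2.78 to 3.59).

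Adhesion and trafficking genes lay on both sides. Of 10 integrin and adhesion genes counted, 7 were higher in both libraries and 3 lower, and of 7 trafficking receptors, 4 were higher and 3 lower, Ccr2 among the latter at -2.63 and -2.09. Itgal, the alpha chain of LFA-1, had log2 ratios of 2.71 and 1.86, Cx3cr1 of 1.49 and 1.51, and S1pr5 of 4.55 and 4.88. The transcription factors Pou2f2 (2.66 and 2.35) and Tcf7l2 (5.35 and 4.73) were higher, as was Bcl6 (2.85 and 2.42). Of 11 transcription factors listed for nonclassical monocytes, 7 were higher in both libraries, 5 of them with a ratio of at least 2, and 3 were lower, 2 of them with a ratio of at most 0.5. Tcf7l2 had too few UMIs to be counted there.

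Lipid handling genes divided between the clusters. Cd36, a scavenger receptor for oxidized lipids, was at 188 CPM in ground and 236 in running, from 38 and 52 UMIs, in the nonclassical-like cluster, with log2 ratios of 6.78 (5.43 to 8.48) and 5.84 (4.70 to 7.23). Fabp4, a fatty acid carrier, had log2 ratios of 6.26 and 5.35, and Apoe, an apolipoprotein for lipid export, of 1.92 and 1.97. Msr1, another scavenger receptor, was lower (-3.97 and -1.77, from 1 and 7 UMIs), as was the cholesterol carrier Npc2 (-2.01 and -1.61). Of 11 lipid genes counted, which leave out Cd36 and Fabp4 for their few UMIs, 2 had a ratio of at least 2 in both libraries and 4 of at most 0.5.

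Class II genes, immediate early genes and heat shock genes were mostly higher in the nonclassical-like cluster than in the classical-like clusters. Cd74, the invariant chain of MHC class II, stood at 1215 CPM in ground and 2115 in running, with log2 ratios of 3.24 (3.01 to 3.48) and 3.20 (3.01 to 3.40). For 6 class II genes the median log2 ratio was 3.25 in ground and 3.49 in running, against 0.04 and -0.04 over all 4741 genes, and 4 of the 6 were higher in both libraries. Selected cells of dendritic cell-like clusters, whose leading genes included H2-Eb1, H2-Ab1, H2-Aa and Cd74, were on neither side of this contrast. Against the comparison cells, the H2-Aa level in the nonclassical-like cluster was lower in ground and higher in running. The 18 immediate early genes had medians of 0.94 and 0.75, with 14 higher in both libraries, and the 11 heat shock genes of 0.91 and 1.10, with 8 higher. Hspa1a and Hspa1b, near-identical copies whose counts may be exchanged, had log2 ratios of 3.62 and 3.501, and of 4.16 and 4.13. The 8 dendritic cell markers were all at 0 there in ground, and 1 was detected in running. That 1 marker, Clec10a, brought the summed level to 4.55 CPM.

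Several markers of classical monocytes were among the genes lower in the nonclassical-like cluster. F13a1 had 1 UMI in ground and 3 in running there, with log2 ratios of -8.03 (-13.34 to -5.55) and -6.67 (-8.95 to -5.12). Fn1, fibronectin, had 5 UMIs in ground (log2 ratio of -6.35) and none in running. The level of Ly6c2 was 74.4 and 273 CPM against 1607 and 2796.

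The share of barcodes that met the rule was lower in the running library, and the share in the nonclassical-like cluster was not. Selected cells made up 4.12% of kept barcodes in ground (95% interval 3.72 to 4.55) and 3.08% in running (2.74 to 3.46), a ratio of 0.748 (0.643 to 0.871). Selected cells in classical-like clusters made up 3.17% and 2.11%, a ratio of 0.668 (0.557 to 0.7997). The nonclassical-like cluster held 0.662% of barcodes in ground and 0.664% in running, a ratio of 1.003 (0.702 to 1.43). This interval, from 59 and 61 cells, takes in the ratio of 0.748 for all selected cells.

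The share of comparison cells was higher in running. Comparison cells, with none of the 3 transcripts, made up 1.14% in ground and 1.97% in running, a ratio of 1.72 (1.35 to 2.19). Cells with a sum of 1 made up 1.77% and 2.11%, a ratio of 1.19 (0.968 to 1.47), and all Csf1r-positive barcodes 21.1% and 22.4%. A minimum of UMIs makes the rule depend on depth, and the median depth of kept barcodes was 5993 UMIs in ground and 5196.5 in running. With every barcode thinned to 2000 UMIs before the rule was applied, 1.19% of 7956 barcodes met it in ground and 0.894% of 8391 in running, a ratio of 0.749 (0.554 to 1.01). A share of barcodes cannot tell fewer cells of one kind from more of the others.

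**Figure D3:**
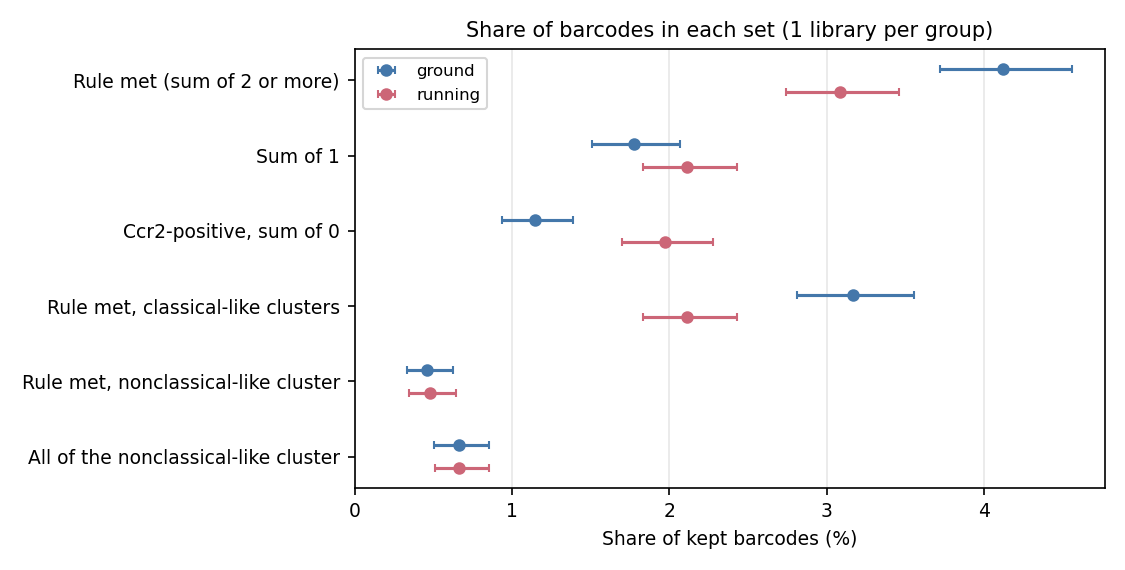
Share of kept barcodes (percent) in 6 sets of cells for each library, with exact 95% binomial intervals that cover counting error only. Cells meeting the rule make up 4.12% in ground and 3.08% in running, while the nonclassical-like cluster makes up 0.662% and 0.664%.

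Within the selected cells, few genes differed by 2-fold between running and ground. Of 5870 genes with at least 100 UMIs, 37 (0.63%) had a running over ground ratio of at least 2 and 36 (0.613%) of at most 0.5. The first of the 12 highest genes by the naming rule was Lpl, lipoprotein lipase, the enzyme that APOC2 activates. It had 118 UMIs in ground and 552 in running, which gave levels of 34.0 and 248 CPM and a running over ground log2 ratio of 2.87 (2.58 to 3.17). In the classical-like clusters alone the counts were 32 (0.609%) and 46 (0.876%) of 5254 genes, in the nonclassical-like cluster 7 (1.13%) and 3 (0.486%) of 617, and in the comparison cells 28 (0.848%) and 26 (0.788%) of 3300. No single cell held more than 8.47% of the Lpl UMIs in either library.

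Most Lpl UMIs lay in the selected cells of classical-like clusters. There Lpl was at 36.1 CPM in ground and 285 in running, with a UMI in 15.2% and 46.9% of cells, against 0.338% and 0.993% of B cells. Thinned to 2000 UMIs, these shares were 5.05% and 25.4%, against 0.0908% and 0.689% of B cells. In the nonclassical-like cluster it was at 49.6 and 22.7 CPM, from 10 and 5 UMIs, a log2 ratio of -1.13 (-3.02 to 0.56). The comparison cells had 18.9 and 241 CPM, a log2 ratio of 3.67 (2.95 to 4.49). A higher Lpl level in running was thus seen in the selected cells as a whole and in the comparison cells. The comparison cells had no Apoc2, Ear2 or Treml4 UMI. Of them, 69 of 102 in ground and 133 of 181 in running lay in classical-like clusters.

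The 12 highest genes also included Ifit3 (log2 ratio of 1.81), which binds viral RNA, Ifi206 (1.67) and Ifi213 (1.49) of the Ifi200 family, and H2-Q7 (1.65), a nonclassical MHC class I gene. H2-Q7 and H2-Q6 are near-identical, so their counts may be exchanged. Ly6i, a Ly6 family surface protein, was at 13.8 CPM in ground and 44.5 in running (1.69), and Ccl4, an inflammatory chemokine, at 76.0 and 192 CPM (1.34). With a mean of CPM over cells the log2 ratio of Ccl4 was 0.95.

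Ccl4 was detected in 18.3% of selected cells in ground and 29.7% in running (6.65% and 17.4% after thinning, and 1.86% and 2.32% of B cells unthinned), and in 2 of 41 and 10 of 44 cells of the nonclassical-like cluster. In the comparison cells the shares with a Ccl4 UMI were 15.7% and 32.0% (7.29% and 21.7% after thinning). Bcl2a1b, an antiapoptotic gene with near-identical copies, was at 9.21 and 36.0 CPM (1.97). In the nonclassical-like cluster Bcl2a1b was at 89.3 and 205 CPM. The remaining 4 of the 12 were Skint3 (1.59), Racgap1, a regulator of cell division (1.52), Slamf8, a SLAM family receptor of myeloid cells (1.45), and the VEGF receptor Flt1 (1.44).

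Among the 12 lowest genes, Dhrs3, a retinaldehyde reductase, had 122 UMIs in ground and 10 in running, or 35.1 and 4.50 CPM, and came first with a log2 ratio of -2.97 (-4.06 to -2.04). Ifitm1, an interferon-induced membrane protein also carried by neutrophils, was at 269 and 71.5 CPM (-1.91). Its log2 ratio was lower still in the comparison cells (-3.28), where it was at 557 and 57.2 CPM.

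Lrg1, an acute-phase glycoprotein, was at 136 CPM in ground and 46.3 in running (-1.56), Bcl3, a nuclear partner of NF-κB, at 48.1 and 13.9 CPM (-1.79), and Socs3, the inhibitor of STAT3 signalling, at 32.5 and 12.6 CPM (-1.37). Lrg1 was at 44.6 and 45.5 CPM in the nonclassical-like cluster, from 9 and 10 UMIs. Also among the 12 lowest were Shtn1, Tarm1, Akt1s1, Atp11a, Tmc6 and Ndst1, between -1.53 and -1.32. Cells with over 5% of UMIs from S100a8 and S100a9 made up 11.99% of selected cells in ground and 12.7% in running, and the 12 neutrophil markers summed to 39088 and 35678 CPM. In the selected cells of classical-like clusters those markers summed to 28623 and 16638 CPM. The comparison cells had 45168 and 16316 CPM, and B cells had 40094 CPM in ground and 14414 in running. Without the cells holding over 5% of UMIs in S100a8 and S100a9, a setting chosen after seeing the data, the log2 ratio was -1.33 (-1.74 to -0.93) for Ifitm1 and -2.80 (-3.64 to -2.06) for Lrg1.

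**Figure D4:**
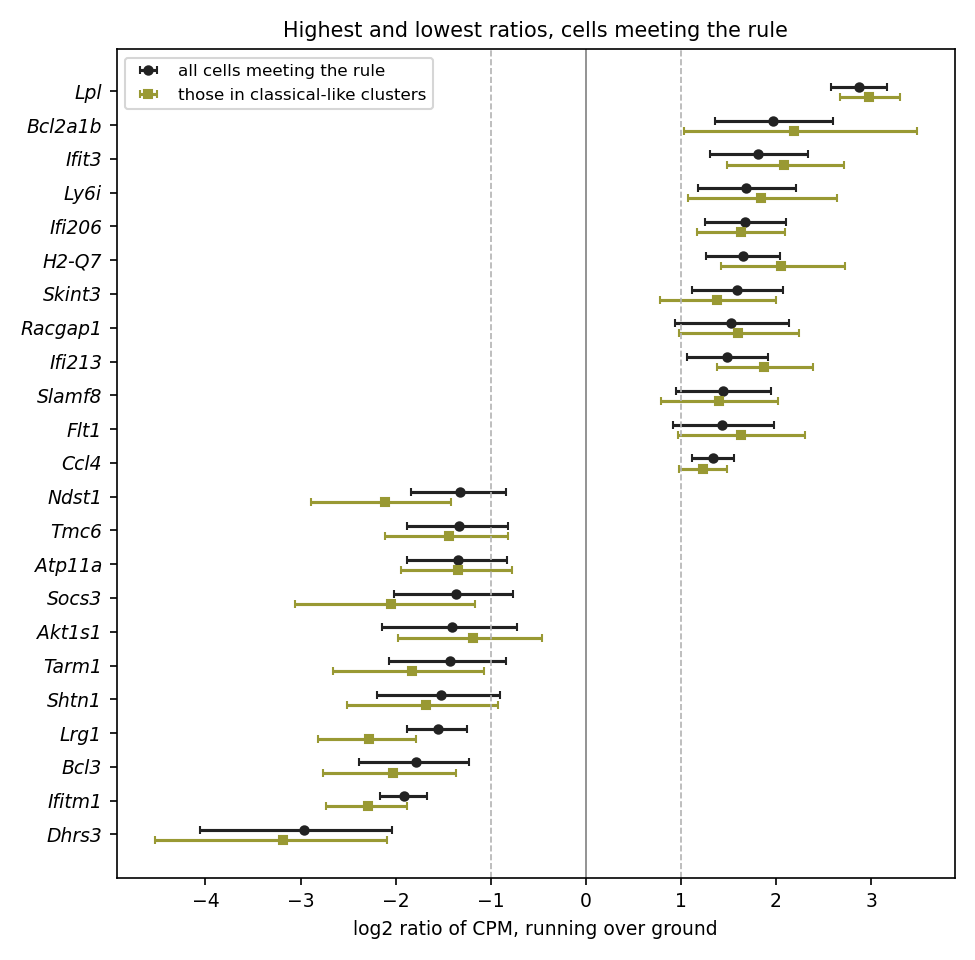
Log2 ratio of CPM, running over ground, for the 12 genes with the highest ratio and 11 of the 12 with the lowest in selected cells (circles) and in those of classical-like clusters (squares), with exact 95% conditional binomial intervals that cover counting error only. Lpl is highest at 2.87 and Dhrs3 lowest at -2.97, and the dashed lines mark ratios of 2 and 0.5.

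Genes of the type I interferon list were mostly higher in running, and mostly by less than 2-fold. Of 29 type I interferon genes with at least 50 UMIs, 28 had a ratio above 1 and 4 of at least 2, with a median log2 ratio of 0.54. Ifitm1, at -1.91, is not on that list. Over all 7620 genes with that many UMIs, 3799 (49.9%) had a ratio above 1, 66 (0.866%) of at least 2 and 88 (1.15%) of at most 0.5, with a median of -0.00. Ifi27l2a was at 1773 and 3112 CPM (0.81), Oasl2 at 63.9 and 141 CPM (1.14), and the master regulator Irf7 at 77.2 and 134 CPM (0.80).

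All 10 interferon-gamma-inducible genes counted were above 1, with a median of 0.51 and Gbp2, a guanylate-binding GTPase, highest at 27.4 and 63.9 CPM (1.22). Comparison cells had a median of 0.57 for the type I list and 0.38 for the interferon-gamma list. In the nonclassical-like cluster only 5 type I genes had enough UMIs, and all were higher in running, with a median of 1.06. Zbp1, a sensor of viral nucleic acid, was at 59.5 and 177 CPM there.

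Antigen presentation genes were mostly higher in running. Of 17 class I genes 14 were above 1, with a median of 0.50, where 3799 of all 7620 genes (49.9%) were above 1. H2-K1 was at 593 and 1019 CPM (0.78), B2m, the class I light chain, at 1319 and 1870.3 CPM (0.50), and the peptide transporter gene Tap1 at 81.2 and 126 CPM (0.63). Calr, the chaperone calreticulin, was at 419.5 and 303 CPM (-0.47). In the comparison cells 15 of 16 class I genes were above 1, with a median of 0.61, where 3010 of all 5270 genes were.

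All 7 class II genes counted were above 1, with a median of 0.84. H2-Aa had 574 UMIs in ground and 848 in running, or 165 and 381 CPM (1.21, 1.05 to 1.36), and its UMIs came from 61 of 367 and 63 of 283 cells, with up to 16.9% from 1 cell. In the nonclassical-like cluster a UMI of H2-Aa was found in 7 of 41 cells in ground and 21 of 44 in running, and its level was 174 and 691 CPM (1.99, 1.46 to 2.57). In the classical-like clusters the share was 11.7% and 10.8% and the level 18.2 and 37.7 CPM (1.05, 0.50 to 1.60). The level in all selected cells was thus well above that in the clusters where most of them lay. Dendritic cell-like clusters, whose leading genes included H2-Eb1, H2-Ab1 and H2-Aa, held 21 and 20 of the selected cells. Their part in the class II levels and ratios of all selected cells was not tested. The shares of B cells, which make class II, with an H2-Aa UMI were 55.3% and 57.9%. In the comparison cells all 7 class II genes counted were above 1 as well, with a median of 0.35. The log2 ratio of H2-Aa was 0.19 there. For H2-Aa, the difference of log2 ratios between selected and comparison cells was 1.01 (0.79 to 1.24, a normal approximation over 4 counts). Over 3300 genes, 19 had such a difference of at least 1 and 8 of at most -1.

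Immediate early genes were mostly higher as well, 17 of 19, with a median of 0.42. Atf3, a stress-induced transcription factor, was at 372 and 781 CPM (1.07), Fos at 791 and 1234 CPM (0.64), and Nr4a1 at 156 and 247 CPM (0.66, 0.49 to 0.83). Ier3 ran the other way at 178 and 86.8 CPM (-1.04). In the nonclassical-like cluster Nr4a1 was at 714 and 791 CPM, with an interval for the log2 ratio from -0.18 to 0.48. The median for immediate early genes was 0.52 in the comparison cells and 0.18 in the nonclassical-like cluster.

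Fc receptors and transcription factors of nonclassical monocytes had medians near that of all genes. Fcgr4 was at 84.4 CPM in ground and 81.8 in running, and the 6 Fc receptors counted had a median of -0.01, with 3 above 1. The 14 nonclassical transcription factors had a median of 0.08, with Klf4 at 269.5 and 467 CPM (0.79) the highest. Ace was at 51.5 and 88.6 CPM (0.78) in all selected cells and at 669.5 and 600.3 CPM (-0.16, -0.51 to 0.20) in the nonclassical-like cluster, which held 11.2% of selected cells in ground and 15.5% in running. In the classical-like clusters Ace was at 12.4 and 28.8 CPM (1.22, 0.57 to 1.88).

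Integrins and their partners had a median of 0.18 over 13 genes. Itgal was at 169.9 and 246 CPM (0.54), Spn at 63.6 and 102 CPM (0.68), and Itga4, the alpha chain of VLA-4, at 422 and 339 CPM (-0.32). In the nonclassical-like cluster Itga4 was at 828 and 541 CPM (-0.61, -0.97 to -0.27), and the median over 8 genes was -0.23. The 11 trafficking receptors had a median of -0.02, with Cx3cr1 at a log2 ratio of 0.10 and Ccr2 at -0.04. Fc receptors were below 1 in all 4 genes counted in that cluster, where 685 of all 1336 genes were, with a median of -0.42 and Fcgr2b, the inhibitory receptor, at 238 and 100 CPM (-1.25, -2.05 to -0.49).

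Lipid genes had a median of 0.29 over 13 genes, 10 of them above 1, with Lpl and Cd36 (12.4 and 27.4 CPM, 1.15) of at least 2. Of the Cd36 UMIs, 38 of 43 in ground and 52 of 61 in running lay in the nonclassical-like cluster, where the log2 ratio was 0.33 (-0.30 to 0.97). Cytokine and chemokine genes had a median of 0.25 over 14, with Ccl3 at 217 and 436 CPM (1.01) and Cxcl2 at 195 and 149 CPM (-0.39), where the comparison cells had a log2 ratio of -2.31. The 15 inhibitory and activating surface receptors had a median of 0.24, with Cd86 at 67.4 and 99.4 CPM (0.56) and the paired inhibitory receptor Pirb at 494 and 335 CPM (-0.56). Survival genes had a median of 0.10 over 13, with Csf2rb, the shared beta chain of the GM-CSF and interleukin-3 receptors, at 217 and 137 CPM (-0.67).

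Glycolysis and lysosomal protease genes had medians below 0. Over all 7620 genes, 3821 had a ratio below 1. Of 18 glycolysis genes 13 had a ratio below 1, none of at most 0.5, with a median of -0.20. Pgam1 was at 238 and 156 CPM (-0.61) and Gapdh at 1233 and 964 CPM (-0.36). Of 10 lysosomal genes 6 were below 1, with a median of -0.29, and Ctsd, cathepsin D, was at 412 and 284 CPM (-0.53). In the comparison cells 13 of 16 glycolysis genes were below 1, with a median of -0.25. The lysosomal median was -0.06 in the comparison cells, and -0.027 over 8 genes in the nonclassical-like cluster.

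Complement genes had a median of -0.12 over 7, Notch pathway genes of -0.16 over 7, and glucocorticoid-responsive genes of -0.06 over 11, the last with Tsc22d3 at 93.3 and 67.5 CPM (-0.47). Heat shock genes (-0.04 over 11) and actin genes (0.00 over 20) had medians near that of all genes. Rcn2, a calcium-binding reticulocalbin, had 16 UMIs in ground and 32 in running, and Nrp2, a neuropilin listed with it, had 50 and 20.

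**Figure D5:**
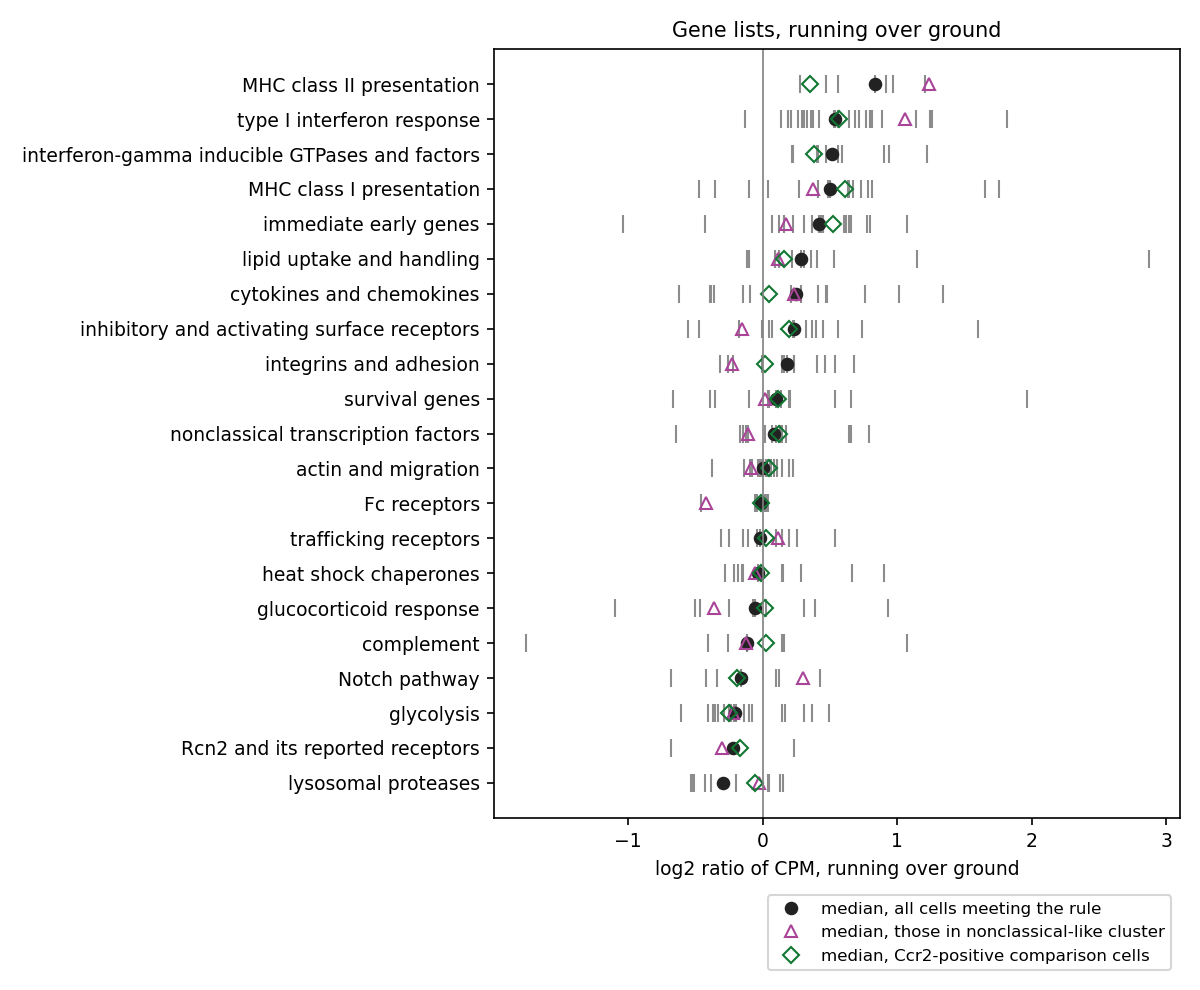
Log2 ratio of CPM, running over ground, for genes of each list. Grey ticks are single genes in all selected cells, filled circles their median, open triangles the median in selected cells of the nonclassical-like cluster and open diamonds the median in comparison cells. The MHC class II list has the highest median in selected cells, at 0.84, and the lysosomal list the lowest, at -0.29.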

How the data were processed

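Raw UMI counts of each gene in each barcode were deposited. Per the file headers, Cell Ranger 5.0.0 wrote them, and the submitters' processing notes list STAR and build mm10. The authors' further filters are not given in the sources used here. Barcodes with at least 500 UMIs, 250 genes and at most 10% mitochondrial UMIs were kept: 8909 of 9162 in ground and 9180 of 9473 in running, from libraries of 85014860 and 79990530 UMIs. The libraries shared 24 barcodes, and 1 selected cell carried such a barcode. Counts were summed over cells and scaled to CPM. Ratios carry exact conditional binomial, levels exact Poisson and shares exact Clopper-Pearson 95% intervals; ratios of shares use a normal approximation on the log scale. Scrublet in scanpy 1.11.5 called 243 ground and 100 running barcodes doublets, 24 and 7 of them selected cells; they were kept, and left out as an alternative. Clusters came from 2000 variable genes without those of the rule, 30 components, 15 neighbours and Leiden resolution 1, giving 33, and were named from markers among 10 leading genes. Of 302 genes on 21 lists, 300 were matched in the files. Members and lists were chosen with earlier results of these data known. Named genes are the 12 highest and 12 lowest running over ground ratios, the 15 highest and 12 lowest of each contrast between sets, markers, and 2 to 4 list members of large ratio. Rule genes, genes of which 1 cell held over 25% of UMIs, and markers of other cell types were left out of rankings, as were unnamed, mitochondrial, ribosomal, Xist, Y-linked, haemoglobin and antigen receptor genes. A few list members with further values (such as Tcf7l2, Bcl6, Msr1, Npc2 and Fabp4) were named after their values were seen. Some genes that the naming rule picks are not reported here. The interval procedure was tested on simulated data. Gene positions were not used for any result. Rule depth, doublets, scaling, count filters and clusters were varied.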

Additional observations from a re-analysis of the deposited data

How the results depend on the processing

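No paired analysis was possible because each group is 1 library, and for the same reason no library could be left out. Settings that use clusters or neutrophil RNA were chosen after seeing the data. The share ratio was 1.04 for selected cells of the nonclassical-like cluster and 0.882 with a sum of at least 1. In that cluster alone, running over ground counts were 7 at a ratio of at least 2 and 3 of at most 0.5, from 617 genes. With minimums of 10, 50 and 200 UMIs the counts were 317 and 409, 66 and 88, and 18 and 15. Lpl turned to -1.13 and Lrg1 to 0.027 in that cluster, from few UMIs. Against comparison cells, Thbs1 turned to -1.86 in that cluster and Cd300e to -0.60 in classical-like clusters, where a set with no UMI was put at a floor of 3. Counts of genes past 2-fold against comparison cells, genes of the rule included, were 158 and 175 for the nonclassical-like cluster. They were 34 and 11 from 20 UMIs, and 7 and 0 from 200 UMIs. The count of at most 0.5 was 2 without cells over 5% S100a8 and S100a9 and 1 in classical-like clusters. The 8 genes with a difference of log2 ratios of at most -1 became 13 with a sum of at least 3 and 18 with a mean over cells. List medians in the nonclassical-like cluster were -0.11 for transcription factors, 0.30 for Notch, -0.23 for integrins, -0.42 for Fc receptors, -0.15 for surface receptors, -0.027 for lysosomal genes, 1.06 for type I interferon, 1.24 for class II, 0.18 for immediate early, -0.36 for glucocorticoid and -0.088 for actin genes. From 200 UMIs, surface receptors had 0.066 and cytokines -0.10. Class II had 1.15 with a sum of at least 3 and 0.55 with a mean over cells. Some of these settings use fewer cells, genes or UMIs, others add them, and a mean over cells uses the same ones. The cause of the changes was not tested. The other 270 values of main results and 383 of single genes moved by less than their limits, and 65 of single genes moved by more without turning.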
